A study of Mus musculus with 3 samples.

Results

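The cell cycle genes described here are 35 genes whose products act at a known stage of cell division, measured in mouse bone-marrow-derived macrophages. They were chosen by name and located by gene identifier, and all 35 had an entry and at least 1 read in every library. They form 3 classes, of 7 G1 cyclins and inhibitors, 14 replication genes and 14 mitotic genes, among 22028 protein-coding genes and 55536 annotated genes in all. The series holds 1 group of 3 libraries. All of them come from primary macrophages of the inbred strain C57BL/6J that received Lipid A, the part of lipopolysaccharide that activates TLR4, at 100 ng/ml for 12 h, were kept without it for 12 h, and then received it again at 100 ng/ml for 20 min. RNA came from the cytosolic fraction, was depleted of ribosomal RNA and was sequenced as total RNA. The labels call the libraries biological replicates 1, 2 and 3 but give them a single donor identifier, and they give neither age nor sex. Errors therefore describe how far these 3 libraries differ, and some of that difference may be technical. No untreated or nuclear library was analysed here, so nothing below is a change with treatment.

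A cell that enters division first raises its D-type cyclins, which bind Cdk4 and Cdk6 and phosphorylate the retinoblastoma proteins, and then its E-type cyclins, which act with Cdk2. The inhibitors p21 (Cdkn1a) and p27 (Cdkn1b) oppose these kinases. Release of E2F transcription factors from the retinoblastoma proteins turns on the genes that license and copy DNA, and a later wave, driven by the Myb-MuvB and Foxm1 factors, turns on the genes of mitosis. Bone-marrow-derived macrophages divide in response to the growth factor M-CSF, and lipopolysaccharide is known to halt that division. In RNA from a whole culture, fewer cells in a phase and less RNA per cell cannot be told apart.

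Expected counts on annotated genes, which are the authors' estimates of reads per gene, came to 32055937, 43616634 and 47864978 in replicates 1, 2 and 3. The members held 26871, 38175 and 43687 of them. Levels are given in TPM, which divides by transcript length and so allows genes to be compared within a library. Protein-coding genes held 32.7%, 27.4% and 27.8% of all TPM in replicates 1, 2 and 3, so short noncoding RNAs lower the TPM of every member. The macrophage identity of the cultures was checked on 9 markers, which all reached 1 TPM in every library and summed to 5364, 4611 and 4799 TPM. Of 5 haematopoietic progenitor markers none reached 1 TPM in every library, with sums of 0.31, 0.30 and 0.35 TPM.

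The classes stood in the order G1, replication, mitotic. The median G1 gene had 6.21 ± 0.734 TPM (SD, n = 3), from 6.78, 6.46 and 5.38 TPM in replicates 1, 2 and 3. The median replication gene had 3.65 ± 1.08 TPM, from 3.115, 2.95 and 4.895 TPM in the same libraries. The median mitotic gene had 0.817 ± 0.123 TPM, from 0.68, 0.85 and 0.92 TPM. The mitotic values lay below those of the other classes in every library, and the median over all protein-coding genes was lower still, at 0.15 ± 0.02 TPM. On the log2(TPM + 1) scale the G1 median exceeded the mitotic median by 1.99 ± 0.24 (SD, n = 3). It exceeded the replication median by 0.65 ± 0.46, with 0.92, 0.92 and 0.12 in replicates 1, 2 and 3, so this gap was nearly closed in replicate 3. The replication median exceeded the mitotic median by 1.34 ± 0.27. All 3 differences were positive in 3 of 3 libraries, and no test was made, since an exact sign-flip test over 3 libraries cannot go below 0.25. The sizes depend on which genes are counted. Among members at a mean of 1 TPM or more alone, replication minus mitotic was 0.50 ± 0.37 and G1 minus replication was 1.01 ± 0.42. With the E-type cyclins placed among the replication genes, G1 minus replication was 1.83 ± 0.48 and G1 minus mitotic was 3.08 ± 0.44.

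At least 1 TPM in every library was reached by 5 of 7 G1 genes, 11 of 14 replication genes and 3 of 14 mitotic genes, which is 19 of 35 in all. The same was true of 41.3% of all protein-coding genes and of 17.2% of all annotated genes. The mitotic share thus lay below that of protein-coding genes as a whole. Without replicate 2, 5 mitotic genes passed. The count depends on the scale. With TPM rescaled to protein-coding genes alone, 10 of 14 mitotic genes and 30 of 35 members reached 1 TPM in every library, against 46.6% of protein-coding genes. At a threshold of 0.5 TPM as deposited, 8 of 14 mitotic genes passed, against 44.6% of protein-coding genes.

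**Figure D1:**
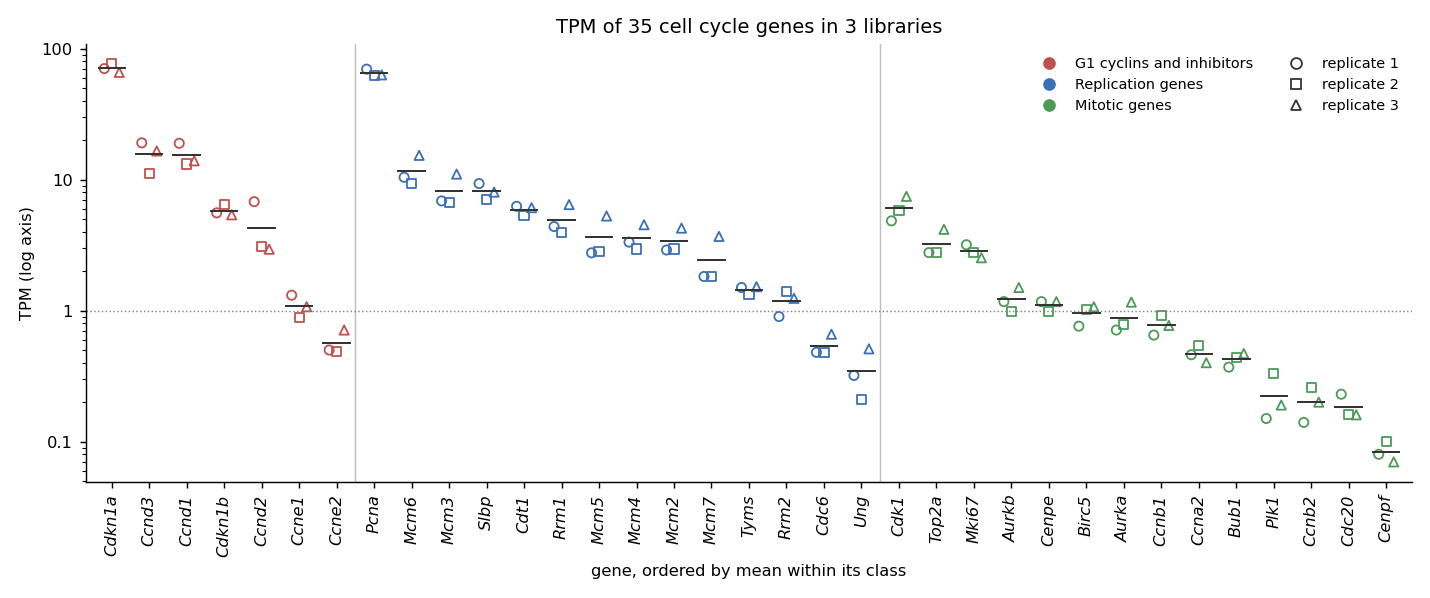
TPM of each of the 35 genes in replicates 1, 2 and 3 (circle, square and triangle), on a log axis, with a bar at the mean and a dotted line at 1 TPM; genes are ordered by mean within the G1, replication and mitotic classes. Cdkn1a and Pcna, at means of 70.8 and 64.95 TPM, stand well above every other gene, and most mitotic genes lie under the dotted line.

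Among the G1 genes the inhibitor p21 was the most abundant transcript, followed at a distance by cyclins D1 and D3. Cdkn1a (ENSMUSG00000023067.14, mm10 chromosome 17, 29090976 to 29100727, plus strand), the p53-inducible inhibitor of cyclin-dependent kinases, had 70.3, 76.4 and 65.8 TPM in replicates 1, 2 and 3. Its mean of 70.8 ± 5.30 TPM (SD, n = 3) was above that of 97.1% of protein-coding genes. Cdkn1b, which encodes the related inhibitor p27, had 5.57, 6.46 and 5.38 TPM. The ratio of Cdkn1a to Cdkn1b was 12.2 ± 0.400, so p21 transcripts outnumbered p27 transcripts in all 3 libraries by a nearly constant factor.

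The D-type cyclins were unequal. Ccnd1 (ENSMUSG00000070348.5, chromosome 7, 144929931 to 144939925, minus strand), the cyclin that M-CSF signalling is known to raise in macrophages, had 18.9, 13.2 and 13.9 TPM in replicates 1, 2 and 3. Ccnd3, the D-type cyclin known for its part in haematopoietic cells, had 19.1, 11.2 and 16.5 TPM. These value ranges overlapped, and the ratio of Ccnd1 to Ccnd3 was 1.00 ± 0.167. Ccnd2 had 6.78, 3.10 and 2.94 TPM, highest in replicate 1, and made up 11.8% ± 3.19 of D-type cyclin TPM, against 43.9% ± 3.46 for Ccnd1 and 44.3% ± 4.61 for Ccnd3. The E-type cyclins, the Cdk2 partners of the G1/S transition, were far lower. Ccne1 had 1.31, 0.89 and 1.07 TPM and Ccne2 had 0.50, 0.49 and 0.71 TPM. Placing them with the replication genes raised the G1 median to 14.7 ± 3.91 TPM.

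The partners and inhibitors outside the 35 genes were present at levels of a similar order. Of 19 other kinases, regulators and inhibitors, 15 stood at 1 TPM or above throughout, against 41.3% of all protein-coding genes. Their median was 2.73 ± 0.165 TPM. Cdk4, the kinase partner of the D-type cyclins, led them with 21.3, 21.8 and 20.8 TPM in replicates 1, 2 and 3. Cdk6, its close relative, had 13.1, 12.9 and 10.1 TPM, and Fzr1, an activator of the anaphase-promoting complex in G1, had 7.0, 5.56 and 6.56 TPM. Cdkn2a, which encodes p16 and p19Arf, was lowest, with 0, 5 and 2 counts. A count of 0 in replicate 1 allows up to 0.0929 TPM at 3 counts, counting error only.

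Of 16 p53 target genes other than Cdkn1a, 14 reached 1 TPM in every library, against 41.3% of all protein-coding genes. Their median was 6.91 ± 0.514 TPM. Ccng1, an atypical cyclin, had 45.9, 48.7 and 48.7 TPM in replicates 1, 2 and 3, and Bax, a promoter of apoptosis, had 47.4, 51.7 and 43.1 TPM. Both held within a narrow range across libraries. Plk2, a stress-regulated kinase, differed more, at 42.7, 28.6 and 16.8 TPM, and Eda2r was lowest at 0.03, 0.07 and 0.03 TPM.

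Among 19 E2F, pocket protein and DREAM-complex regulators, 14 reached 1 TPM in every library, against 41.3% of all protein-coding genes. The median of the 19 was 3.31 ± 0.416 TPM. The highest were Rb1, the retinoblastoma protein, with 13.7, 11.3 and 13.9 TPM, the repressor E2F gene E2f4 with 11.4, 11.7 and 11.3 TPM, and the p107 gene Rbl1 with 13.0, 6.98 and 12.1 TPM. These 3 act on the repressing side of the E2F switch. The atypical repressor gene E2f7 was lowest, at 0.06, 0.10 and 0.37 TPM in replicates 1, 2 and 3. Repressors thus stood at both ends of the list.

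**Figure D2:**
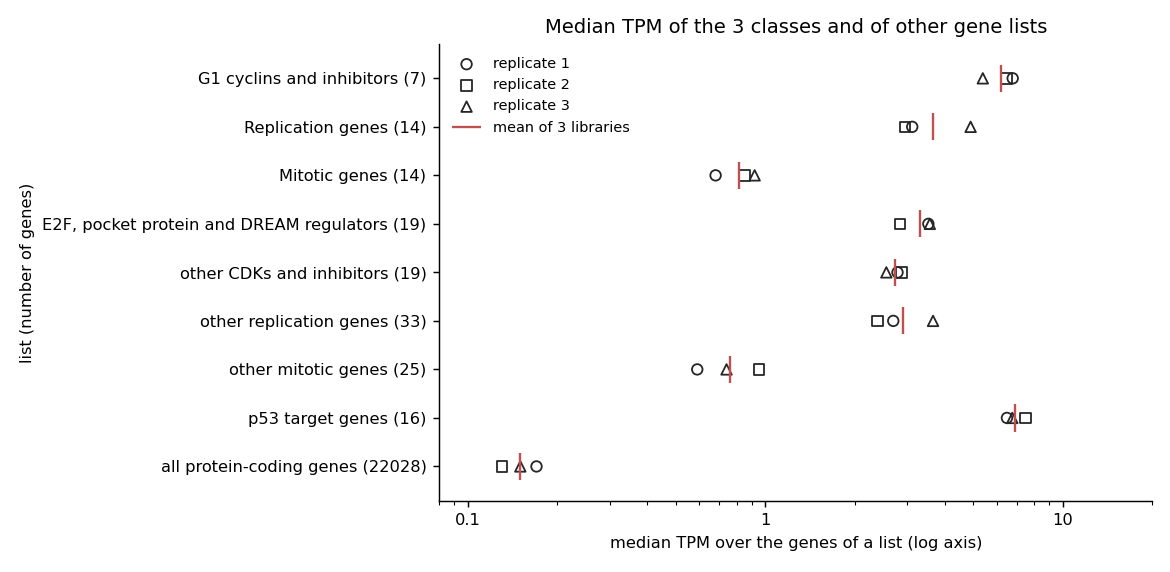
Median TPM over the genes of each list (log axis) in replicates 1, 2 and 3, with a vertical bar at the mean of the 3 libraries and the number of genes in brackets. Mitotic genes, in the class of 14 (0.817 TPM) and in the list of 25 others (0.76 TPM), lie below the G1, replication and regulator lists and above the median of all protein-coding genes (0.15 TPM).

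Replication genes ranged from the level of p21 down to a fraction of a TPM. Pcna (ENSMUSG00000027342.14, chromosome 2, 132249162 to 132253314, minus strand), the sliding clamp of DNA polymerases that also serves in DNA repair, had 69.6, 62.3 and 62.9 TPM in replicates 1, 2 and 3. Its mean of 64.95 ± 4.06 TPM (SD, n = 3) was above that of 96.8% of protein-coding genes, and its values overlapped those of Cdkn1a, whose product binds it. No other replication gene among the 35 exceeded 15.3 TPM. Pcna-ps2, a processed copy, was listed at 0.45, 0.45 and 0.71 TPM and Pcna-ps1 at 0, so the deposited estimates placed nearly all reads at the parent gene.

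The 6 MCM genes encode the subunits of the replicative helicase, a ring that holds each subunit in equal number, yet their transcript levels were unequal. Mcm6 was highest with 10.4, 9.29 and 15.3 TPM in replicates 1, 2 and 3. Mcm3 followed with 6.87, 6.72 and 11.0 TPM. Mcm5 (2.76, 2.84 and 5.27 TPM), Mcm4 (3.33, 2.95 and 4.52 TPM) and Mcm2 (2.90, 2.95 and 4.26 TPM) lay close together and overlapped. Mcm7 was lowest with 1.82, 1.82 and 3.68 TPM, and Mcm6 exceeded it by a factor of 4.99 ± 0.787. The ratio of Pcna to the median MCM gene was 22.3, 21.1 and 12.9 in replicates 1, 2 and 3, lower in replicate 3 than in the others.

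Genes that load the helicase differed from each other. Cdt1, a licensing factor, had 6.25, 5.35 and 6.10 TPM, whereas Cdc6, the ATPase that works with it, had 0.48, 0.48 and 0.66 TPM. The ratio of Cdt1 to Cdc6 was 11.1 ± 1.89. Nucleotide supply was also uneven. Rrm1, the large subunit of ribonucleotide reductase, had 4.38, 3.92 and 6.44 TPM, and Rrm2, the small subunit that limits the enzyme to S phase, had 0.90, 1.39 and 1.24 TPM, a ratio of 4.29 ± 1.29. Tyms, which encodes thymidylate synthase, had 1.5, 1.32 and 1.52 TPM. Of the remaining members, Slbp, the binding protein of histone mRNA stem-loops, had 9.32, 7.06 and 8.02 TPM, and the uracil-DNA glycosylase gene Ung had 0.32, 0.21 and 0.51 TPM.

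A further 33 replication genes gave a similar picture, with a median of 2.91 ± 0.668 TPM. Of the 33, 27 stood at 1 TPM or more in every library, against 41.3% of all protein-coding genes. Rfc2, a subunit of the clamp loader that places PCNA on DNA, led them with 25.8, 22.8 and 30.9 TPM in replicates 1, 2 and 3. Rfc1, its large subunit, had 13.8, 13.9 and 14.0 TPM, and Rpa1, which coats single-stranded DNA, had 12.1, 10.8 and 13.0 TPM. The origin recognition gene Orc1 was lowest, at 0.41, 0.16 and 0.43 TPM.

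Mitotic genes were low with 3 exceptions. Cdk1 (ENSMUSG00000019942.13, chromosome 10, 69335146 to 69352938, minus strand), the kinase that drives entry into mitosis, had 4.84, 5.84 and 7.44 TPM in replicates 1, 2 and 3. Top2a, the topoisomerase that separates sister chromatids, had 2.77, 2.78 and 4.17 TPM. Mki67, the Ki-67 proliferation marker (ENSMUSG00000031004.8, chromosome 7, 135689784 to 135716361, minus strand), had 3.18, 2.79 and 2.53 TPM. No other mitotic member reached 1 TPM throughout.

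The cyclins that activate Cdk1 were well below it. Ccnb1, the main mitotic cyclin, had 0.65, 0.92 and 0.77 TPM, and Cdk1 exceeded it by a factor of 7.82 ± 1.69. Ccna2, the cyclin of S phase and G2, had 0.46, 0.54 and 0.40 TPM, and Ccnb2, a second B-type cyclin, had 0.14, 0.26 and 0.20 TPM. Mitotic kinases were of a like order. Aurkb, the chromosomal passenger kinase, had 1.17, 0.98 and 1.5 TPM, and Birc5 (survivin), its partner, had 0.76, 1.02 and 1.07 TPM. Aurka, the spindle-pole kinase, had 0.71, 0.78 and 1.16 TPM, and Plk1, which acts throughout mitosis, had 0.15, 0.33 and 0.19 TPM. Checkpoint and kinetochore genes completed the class. Bub1, a checkpoint kinase, had 0.37, 0.44 and 0.47 TPM, and Cdc20, the mitotic activator of the anaphase-promoting complex, had 0.23, 0.16 and 0.16 TPM. The kinetochore motor gene Cenpe had 1.17, 0.99 and 1.17 TPM and Cenpf had 0.08, 0.10 and 0.07 TPM, the lowest of all 35 genes.

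Few reads lay behind the lowest members. Ccnb2 had 9, 27 and 22 counts in replicates 1, 2 and 3, and its 9 counts have an exact 95% Poisson interval of 4.12 to 17.1, or 0.0640 to 0.266 TPM. Cdc20 had 18, 20 and 21 counts and Plk1 had 15, 52 and 30. Intervals of this kind cover counting error only. Cenpf, by contrast, had 41, 86 and 59 counts, spread over a transcript of 11130 nt.

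Another 25 mitotic genes had a median of 0.76 ± 0.181 TPM. Of them 9 reached 1 TPM in every library, or 36%, near the 41.3% of all protein-coding genes. Pttg1 (securin), the inhibitor of separase, was highest with 49.5, 33.2 and 31.2 TPM in replicates 1, 2 and 3. Bub3, a checkpoint protein, had 11.1, 11.3 and 11.4 TPM, and Incenp, a chromosomal passenger subunit, had 12.5, 8.32 and 10.7 TPM. The checkpoint kinase gene Ttk was lowest at 0.19, 0.16 and 0.23 TPM. Mitotic genes were thus not uniformly low, and the 3 highest of these exceeded every one of the 14 mitotic members.

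Most replication genes had the same highest library. To compare libraries, TPM was scaled by factors from a trimmed mean of log ratios between libraries (TMM), computed on the TPM values themselves. On this scale 11 of 14 replication genes were highest in replicate 3, against 1 of 7 G1 genes and 7 of 14 mitotic genes. Among all 9983 genes at a mean of 1 TPM or more, 32.9% were highest in replicate 3. Of the members at that level, 9 of 12 replication genes, 4 of 5 mitotic genes and 0 of 6 G1 genes were highest there. The exceptions among replication genes were Slbp, highest in replicate 1, and Pcna and Rrm2, highest in replicate 2. All 6 MCM genes were highest in replicate 3, at 1.47 to 2.05 times the mean of replicates 1 and 2, whereas the corresponding ratio was 0.994 for the median expressed gene. The factor was 2.05 for Mcm7, 1.91 for Mcm5, 1.65 for Mcm3, 1.58 for Mcm6, 1.48 for Mcm2 and 1.47 for Mcm4. It was 0.973 for Pcna and 1.07 for Cdt1, so the clamp and the licensing factor did not share it. All 6 MCM genes were also highest in replicate 3 in TPM as deposited, where 27% of the 9983 genes were. The same held in TPM rescaled to protein-coding genes (44.2% of those genes) and in the second quantification so rescaled (44.8%). It also held in protein-coding transcripts alone (30.8%).

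**Figure D3:**
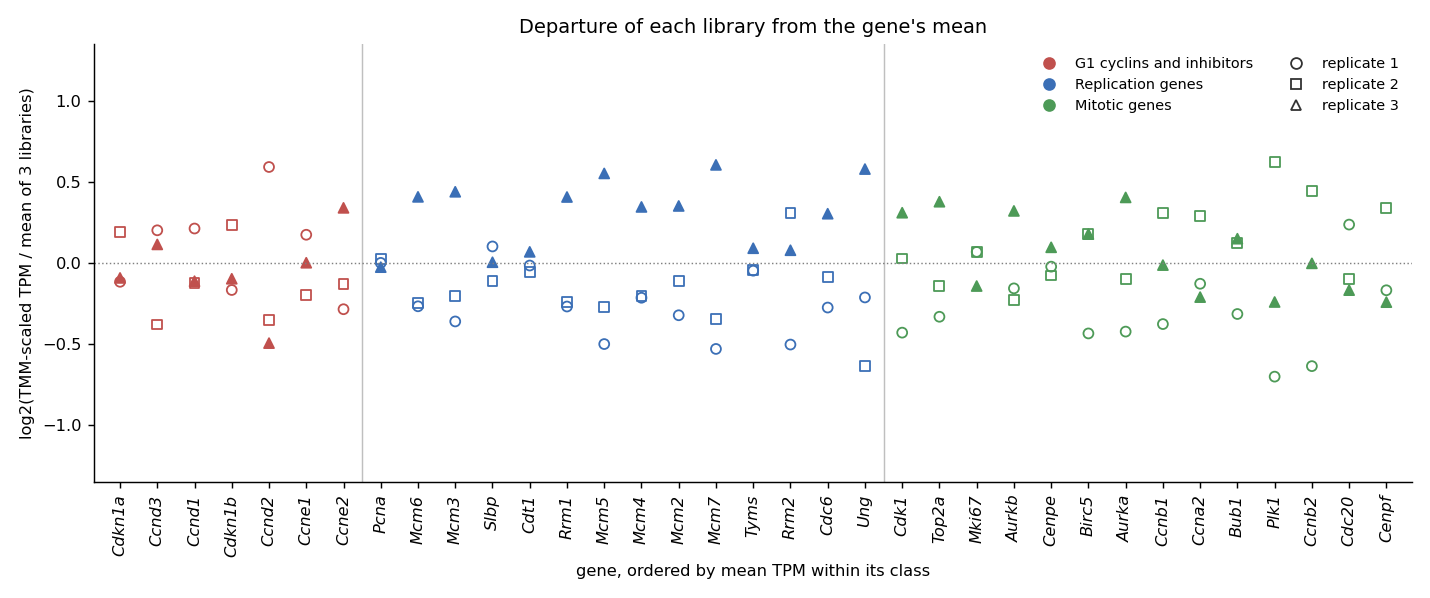
For each gene, log2 of the TMM-scaled TPM in a library over the mean of the 3 libraries, for replicates 1, 2 (open circle, open square) and 3 (filled triangle), with genes in the same order as in the plot of TPM by gene. All 6 MCM genes and Rrm1 have replicate 3 clearly above the dotted zero line, Pcna lies close to it in all 3 libraries, and the G1 and mitotic genes have no common order of libraries.

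A likelihood-ratio test in edgeR with dispersion 0 asked whether a gene's 3 libraries differed by more than counting noise. It compares libraries, not conditions. It called 27 of 35 members at an adjusted p below 0.05, while 71.1% of the 12372 genes tested were called, so the members' share was near the background. With a difference of at least 1.5-fold between the highest and lowest library as well, 15 of 35 members were called, against 20.8% of genes tested. Those 15 were 1 of 7 G1 genes, 9 of 14 replication genes and 5 of 14 mitotic genes. Of them 11 were highest in replicate 3, 8 being replication genes, whereas 5.89% of genes tested were called and highest there. Without replicate 3, 13 of 35 members differed beyond counting noise, against 51.6% of genes tested. The count was 22 without replicate 1, against 52.3% of genes tested, and 19 without replicate 2, against 53.4%.

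Counts scaled to library size (CPM, with TMM) show the size of these differences. Mcm7 had 6.46, 8.69 and 13.8 CPM in replicates 1, 2 and 3, a 2.13-fold range (edgeR, adjusted p = 9.03e-25). Mcm5 had 11.4, 13.5 and 24.1 CPM, a 2.10-fold range (edgeR, adjusted p = 1.69e-48). In both, replicates 1 and 2 lay closer to each other than to replicate 3. Ccnd2 went the other way, with 63.2, 33.4 and 29.9 CPM, highest in replicate 1 and 2.12-fold apart (edgeR, adjusted p = 6.95e-117). Pcna varied least among the members, with a 1.05-fold range (edgeR, adjusted p = 0.0314), although it passed the test at its depth. Mki67 differed by 1.12-fold (edgeR, adjusted p = 0.00134) and was lowest in replicate 3 in TMM-scaled TPM, unlike Top2a, which was highest there with a 1.65-fold range (edgeR, adjusted p = 3.31e-21). The proliferation markers therefore did not order the libraries alike, and the ratio of Mki67 to Top2a was 1.15, 1.00 and 0.607 in replicates 1, 2 and 3.

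The 33 other replication genes followed replicate 3 as well, though less steeply, with 23 of 33 highest there and a median of 1.22 times the mean of replicates 1 and 2. Among all genes at a mean of 1 TPM or more, 32.9% were highest in replicate 3. Of the 33, 12 differed beyond counting noise by at least 1.5-fold, against 20.8% of genes tested. Of those 12, 11 were highest in replicate 3, whereas 5.89% of genes tested were called and highest there. The 25 other mitotic genes did not follow replicate 3. Of them 6 were highest there and 16 in replicate 2, where 34.6% of all genes at a mean of 1 TPM or more were highest. Among the p53 target genes 3 of 16 were highest in replicate 3 and 10 in replicate 2, against the same 32.9% and 34.6%.

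Markers of other cells and of the nucleus also differed between libraries. The 8 neutrophil and granulocyte precursor markers summed to 8.34, 10.2 and 16.8 TPM in replicates 1, 2 and 3, with 2 of 8 at 1 TPM or more in every library. Of these, S100a8 had 3.78, 3.9 and 5.34 TPM, S100a9 had 3.84, 5.56 and 9.97 TPM and Ngp had 0.51, 0.5 and 1.3 TPM. Prtn3, at 0.12, 0.13 and 0.16 TPM, was also highest in replicate 3. Mpo, Elane and Ctsg, at no more than 0.08 TPM, were not highest there, and Ly6g was at 0 throughout. The 5 B cell markers summed to 1.78, 2.48 and 3.20 TPM, more of it from Cd79b than from any other, with 1.06, 1.51 and 2.52 TPM. The sums of the erythroid, T and NK cell and stromal markers did not exceed 0.26 TPM in any library. Among 6 nuclear RNAs 2 reached 1 TPM in every library, and their sum was 651, 169 and 693 TPM, mostly Malat1 with 612, 156 and 637 TPM. Neat1, the other nuclear RNA at that level, had 24.8, 12.7 and 52.4 TPM. The nuclear sum was highest in replicate 3 and lowest in replicate 2. Xist, at 13.4, 0.66 and 3.42 TPM, and Kcnq1ot1, at 0.21, 0.01 and 0.04 TPM, were instead highest in replicate 1. Meg3 and Snhg11 were at 0 throughout. Of the replication genes, 10 of 14 were lowest in replicate 1, as were 36.6% of all genes at a mean of 1 TPM or more. The part of other cells, of nuclear RNA or of depth in the replicate 3 pattern was not tested.

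Promoter sequence was read for every member with a RefSeq window (GRCm38.p6), which runs from 250 bases before to 50 after a gene's start. Of 35 members 29 had a window; Ccnd1, Ccnd2, Ccne2, Mcm4, Ccna2 and Aurkb had none. Letters of E2F-type sites (TTTCCCGC, TTTGGCGC, TTTCGCGC or TTTGCCGC, either strand) were found in 6 of 13 replication genes, 1 of 12 mitotic genes and 0 of 4 G1 genes with a window, against 2.60% of 27025 symbols with a window. The 6 were Cdc6, Cdt1, Mcm3, Mcm5, Mcm6 and Mcm7, which includes 4 of the 5 MCM genes with a window. The cell cycle homology region (CHR), written TTTGAA or TTCGAA on either strand, stood together with a CCAAT box in 9 of 12 mitotic genes, 2 of 13 replication genes and 0 of 4 G1 genes, against 8.61% of symbols. These letter matches describe the windows and are not evidence of binding. Their relation to transcript levels or to the replicate 3 pattern was not tested. E2F-type matches on opposite strands overlap each other in Mcm5 and Mcm6, and in Mcm7 an E2F-type match shares a base with a CCAAT box, the only overlap of different motifs among the members.

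Stretches of 200 bases before the start are shown for some replication genes with E2F-type letters and some mitotic genes with CHR letters. Those letters are in capitals, and the stretches run 5′ to 3′ on the gene's strand. The genes shown were picked by name. Others with such letters are not shown, among them Cdk1, a mitotic gene whose window holds both kinds. Mcm5 and Mcm6 hold a pair of overlapping E2F-type matches each and, in Mcm6, another nearer the start. Ccnb2, Mki67 and Top2a carry CHR letters and no E2F-type letters in the stretches shown. Their mean levels were 0.20, 2.83 and 3.24 TPM. The stretches lie at chr8:75109309-75109508 (plus strand) for Mcm5, chr1:128359706-128359905 (minus) for Mcm6, chr9:70421555-70421754 (minus) for Ccnb2, chr7:135716380-135716579 (minus) for Mki67 and chr11:99024190-99024389 (minus) for Top2a, outside the annotated exons.
Mcm5: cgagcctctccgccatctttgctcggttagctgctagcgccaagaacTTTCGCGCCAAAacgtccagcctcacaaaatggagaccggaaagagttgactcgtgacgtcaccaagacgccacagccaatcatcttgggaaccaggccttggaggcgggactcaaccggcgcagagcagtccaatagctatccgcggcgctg
Mcm6: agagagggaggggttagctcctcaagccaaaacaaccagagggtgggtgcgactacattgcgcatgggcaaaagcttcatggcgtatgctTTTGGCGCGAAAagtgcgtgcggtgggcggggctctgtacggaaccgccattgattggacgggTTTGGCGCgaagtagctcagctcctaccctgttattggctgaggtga
Ccnb2: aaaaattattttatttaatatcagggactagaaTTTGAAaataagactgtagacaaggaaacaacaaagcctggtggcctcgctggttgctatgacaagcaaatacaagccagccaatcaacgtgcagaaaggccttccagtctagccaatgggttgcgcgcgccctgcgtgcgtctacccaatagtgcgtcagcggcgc
Mki67: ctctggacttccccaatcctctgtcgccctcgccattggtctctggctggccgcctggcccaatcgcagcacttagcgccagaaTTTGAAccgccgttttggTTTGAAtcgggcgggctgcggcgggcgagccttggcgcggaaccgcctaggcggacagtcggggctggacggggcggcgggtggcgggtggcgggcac
Top2a: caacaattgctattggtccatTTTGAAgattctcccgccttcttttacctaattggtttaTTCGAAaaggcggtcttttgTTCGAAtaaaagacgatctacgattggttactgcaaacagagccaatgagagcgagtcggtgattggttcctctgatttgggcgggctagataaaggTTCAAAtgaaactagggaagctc

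Transcript estimates changed the reading of a few members. Protein-coding transcripts held at least 90% of the TPM in every library in 24 of 35 members. Of the 23 members at a mean of 1 TPM or more, 15 did, which is 65.2%, and the same 65.2% was found among all protein-coding genes at that level. The 24 included 6 of 7 G1 genes, all but Ccne2. Tyms was the exception in the other direction, with 12.7%, 13.7% and 9.21% of its TPM from protein-coding transcripts in replicates 1, 2 and 3, and it was the only member under 50% in every library, where 3.94% of protein-coding genes at a mean of 1 TPM or more fell. A transcript of 618 nt, annotated as a target of nonsense-mediated decay, took 61.1%, 68.7% and 76.0% of the TPM. By reads the coding share was larger, at 37.7%, 49.7% and 37.1%, since TPM weighs short transcripts more. The coding transcripts of Tyms came to 0.19, 0.18 and 0.14 TPM.

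Cdk1 and a few others were split between coding and noncoding transcripts. Protein-coding transcripts held 59.3%, 58.1% and 42.5% of Cdk1 TPM in replicates 1, 2 and 3, and 87.2%, 85.8% and 79.8% of its counts. A retained-intron transcript of 475 nt took 40.6%, 41.9% and 32.4%, and another, of 378 nt, took 25.1% in replicate 3 and was listed at 0 in replicates 1 and 2. In coding transcripts alone Cdk1 had 2.87, 3.39 and 3.16 TPM, so its place as highest in replicate 3 was not kept. Mcm3 had 64.0%, 62.1% and 58.0% of its TPM in coding transcripts, and these alone gave 4.4, 4.18 and 6.39 TPM, again highest in replicate 3. Top2a had 64.7%, 74.5% and 67.1%. The main other transcripts were annotated as retained introns in Mcm3 and as processed transcripts in Top2a. By reads the coding share of Mcm3 and Top2a was at least 89.9% in every library, since their other transcripts, of 607 to 803 nt, held few reads.

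**Figure D4:**
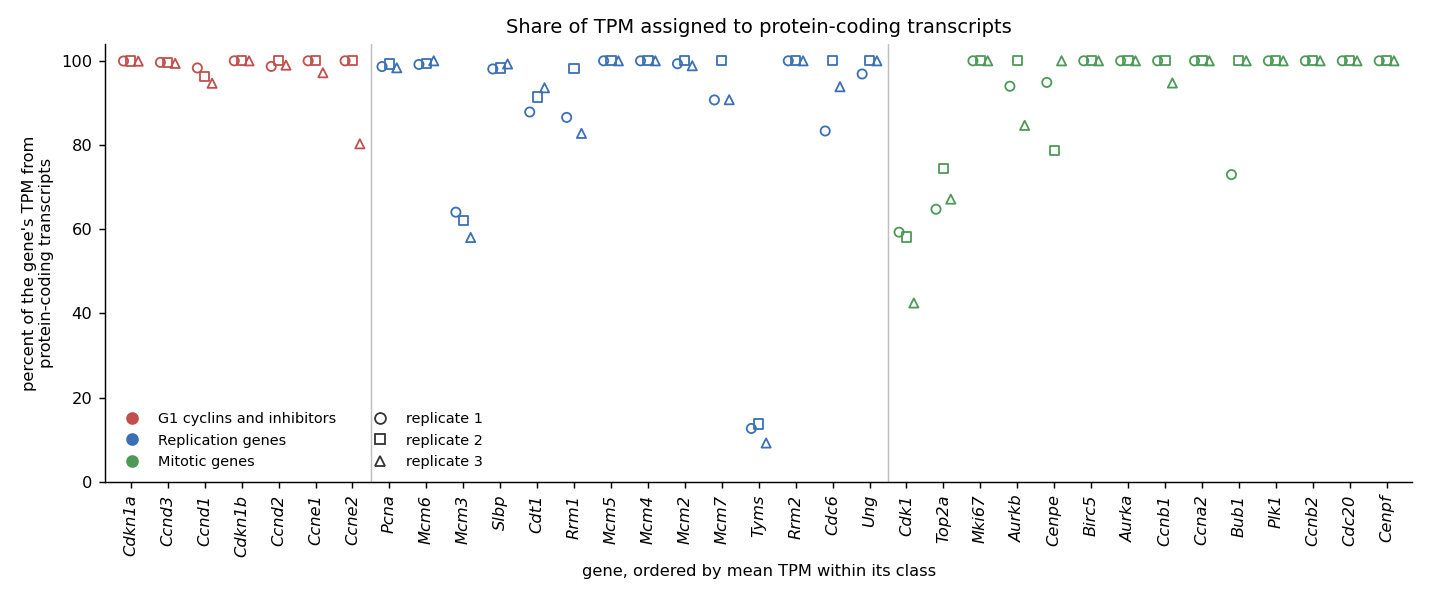
Percent of each gene's TPM that the authors' first transcript tables assign to protein-coding transcripts, in replicates 1, 2 and 3, with genes in the same order as in the plot of TPM by gene. Most members lie at or near 100%, while Tyms lies between 9.21% and 13.7%, and Cdk1, Mcm3 and Top2a between 42.5% and 74.5%.

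The second quantification of the same libraries gave lower TPM in every library for 99.3% of 9354 protein-coding genes at a mean of 1 TPM or more, with a median ratio to the first of 0.503, 0.549 and 0.439 in replicates 1, 2 and 3. As deposited, 2 of the 23 members compared, Mcm3 and Cenpe, were at least 2-fold apart in every library, against 9.71% of all genes compared. At 1.5-fold all 23 were apart, against 86.7% of all genes compared. After both were rescaled to protein-coding genes 0 of 31 were, against 10.8% of all genes compared. On that scale the second value was 0.973 ± 0.0350 of the first for Pcna, 0.955 ± 0.0125 for Cdkn1a and 0.731 ± 0.0240 for Mcm3, while Ccne2, at 1.75 ± 0.511, differed most. The leading members thus kept their levels relative to other coding genes.

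Some members share their locus with another gene. The gene spans of 15 of 35 members overlapped another annotated gene, and in 7 of them a protein-coding neighbour stood at a mean of 1 TPM or more. Mcm7 overlaps Cops6 on the opposite strand, which had 20.9, 18.7 and 16.3 TPM in replicates 1, 2 and 3, and Cdc20 overlaps Elovl1, with 41.8, 38.3 and 37.9 TPM. Both neighbours were lowest in replicate 3 in TPM as deposited, where Mcm7 was highest. The others were Ccnd1 with LTO1, Ccnd3 with Bysl, Ccne2 with Ints8 and Ccna2 with Exosc9, all on opposite strands, and Cdt1 with Gm20388 on the same strand. No source used here gives the strand setting, so reads of overlapping exons in the pairs on opposite strands cannot be told apart. For Cdt1 and Gm20388, on the same strand, no strand setting would separate such reads. The levels of all 7 members are uncertain to that extent.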

How the data were processed

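The members and gene lists were chosen with earlier results of these data known. Each library has a gene table and 2 transcript tables made on mm10 and GENCODE M21, per the labels and the deposited descriptions. Program names, versions and strand handling were not given in the sources used here. Expected counts and TPM per gene are used as deposited by the authors. The first transcript tables give TPM and the percent of each gene's TPM per transcript, as deposited, and the second give estimated counts and TPM, summed per gene here. Entries that are not annotated genes (26345 of 81881, such as tRNAs and spike-ins) held 0.239% to 0.487% of expected counts and were left out.

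Class differences used log2(TPM + 1). Expected counts were rounded and tested with edgeR 4.0.16 (R 4.3.3; TMM, filterByExpr, dispersion 0, Benjamini-Hochberg over all genes tested, threshold 0.05). DESeq2 1.42.0 gave alternative size factors. In simulated counts of 12372 genes with 200 changed, the test recovered 58%, 76%, 96% and 98% of genes changed 1.25-, 1.5-, 2- and 4-fold, with 6 false calls. The genes named were all 35 members and, of each of 5 other lists (112 genes), the 3 highest and the lowest, besides markers, overlapping genes and Tpx2. Other steps used Python 3.11.15, numpy 2.4.6 and pandas 2.3.3.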

Additional observations from a re-analysis of the deposited data

How the results depend on the processing

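Every class difference stayed positive under each alternative tried. Leaving out a library moved the G1 minus replication difference between 0.52 and 0.92, G1 minus mitotic between 1.87 and 2.11, and replication minus mitotic between 1.19 and 1.46 (log2). With the E-type cyclins placed among the replication genes, G1 minus replication was 1.83, G1 minus mitotic 3.08 and the G1 median 14.7 TPM. In the second quantification G1 minus mitotic was 1.54 and replication minus mitotic 0.92, with medians of 3.22, 1.73 and 0.437 TPM for G1, replication and mitotic genes. After rescaling TPM to protein-coding genes the differences were 2.55 and 1.80 and the medians 21.2, 12.6 and 2.83. With a pseudocount of 0.1 the differences were 2.79 and 2.01. Among members at a mean of 1 TPM or more alone they were 1.51 and 0.50, with medians of 10.4 TPM (G1) and 2.69 TPM (mitotic). The cause of these shifts was not tested.

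After rescaling, 10 mitotic genes and 30 members reached 1 TPM in every library (46.6% of coding genes), and 8 mitotic genes reached 0.5 TPM as deposited (44.6%). Without a replicate in turn, 3 to 5 mitotic genes reached 1 TPM. The test against counting noise called 8802 genes, of which 2568 also differed 1.5-fold (15 of 27 members), and 13 to 22 members with a library left out (51.6% to 53.4% of genes tested). Rescaled, 2 of 7 G1 genes were highest in replicate 3, as were 44.2% of all genes at a mean of 1 TPM or more. At 1.5-fold, 23 of 23 members compared differed between quantifications, as did 86.7% of all genes compared, and 0 of 31 at 2-fold after rescaling. No paired analysis was possible because the series has 1 group. Depth limits the members under 30 counts (Ccnb2, Cdc20, Plk1 and Birc5).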

Other observations

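A few values belong to no comparison above and were chosen after they were seen. Tpx2, a spindle assembly factor among the other mitotic genes, had 9.17, 3.47 and 3.23 TPM in replicates 1, 2 and 3, highest in replicate 1 like Ccnd2, Pttg1 and Plk2. The processed pseudogene Ccnb2-ps had 4, 15 and 17 counts in replicates 1, 2 and 3, beside 9, 27 and 22 counts for its parent Ccnb2, so the level of Ccnb2 is uncertain where reads fit both. Ccnb1-ps, Ccnd3-ps and Tyms-ps had 0 counts in every library.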
